A study of Drosophila melanogaster with 16 samples.

Results

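The 215 genes described here are Drosophila melanogaster genes that the deposited table lists under a computed-gene symbol (CG and digits) and whose RNA in whole larvae was low only after 16 h on a high-sugar diet. They were chosen by measured values: a mean of 5 or more in at least 1 group, a mean of log2(value + 0.5) that was lower by 1 or more after 16 h than on the low-sugar diet, and means after 4 h and 8 h within 0.5 of it. Of the 10128 genes in the table, 4434 carry such symbols and 3810 of these reached the mean of 5, so the members are 5.64% of the genes that could have been chosen. The rule also leaves out 7 symbols by name, none of which met its thresholds. All 215 members passed the filter on low values (1 or more in at least 3 libraries). The label "unnamed" holds for most but not all, because the reference annotation, or RefSeq in the case of CG8213, now gives names to 28 of them.

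The larvae were wild type in all groups, were reared on a diet of 10% yeast (LSD), and were moved while early in the second instar. The LSD group went back to the same food and was collected 8 h later (4 libraries). The other groups went to food with 10% yeast and 15% sucrose (HSD) and were collected after 4 h (3 libraries), 8 h (3 libraries) and 16 h (4 libraries), all while feeding. Several larvae were pooled per sample, and a blue food dye is named for the plates. No LSD group at 4 h or 16 h was among the samples. The effect of the diet at 16 h therefore cannot be told apart from that of 8 further hours of growth. Likewise, its effect at 4 h cannot be told apart from that of the shorter time before collection. Another 2 labelled samples, marked as removed outliers, were not analysed here.

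Insect epidermis and tracheae secrete a cuticle of chitin fibres and cuticle proteins under a lipid-rich surface layer that limits water loss. Larvae renew this cuticle at each molt, under pulses of the steroid ecdysone, with waves of genes for chitin synthesis, secreted proteases, lipid synthesis and structural proteins. The Osiris and Tweedle families and the chitin deacetylases are well-known parts of this program in flies. Many of its genes, like many fly genes of specialised epithelia, were annotated by computation and long kept their CG symbols.

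The values are normalised read counts, that is, reads divided by a library's effective size, and the libraries held between 16300308 and 25284073 counted reads. A count of 3 reads corresponds to 0.117 to 0.182, a limit that covers counting error only. Of the listed markers, the table held 18 of 19 for muscle, 16 of 16 for neurons, 12 of 13 for hemocytes and 5 of 10 for Malpighian tubules. It held 3 of 9 for fat body, 5 of 12 for salivary glands and 1 of 18 for testis. None of these was at 0 in every library, which a gene filter applied before deposit could have fixed. Markers missing from the table could not be checked. The summed level of 18 muscle markers was 50333 to 59870 in LSD and 44640 to 47245 in HSD at 16 h. That of 16 neuron markers was 1670 to 1993 and 1452 to 1775, and that of 12 hemocyte markers 1188 to 2264 and 1636 to 1824. Fewer cells of a type and less RNA per cell cannot be told apart in such RNA, and the part of tissue composition in the results below was not tested. Positions are those of BDGP6.54, matched through the gene identifiers, and 214 of the 215 members were found there. Of these, 82 overlap a gene on the opposite strand and 26 a gene on the same strand, and their values are uncertain because the sources used here do not say how such reads were counted.

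Because the rule used all 4 groups, the fall at 16 h and the flat values at 4 h and 8 h describe the members and are not tested. The median of the members' mean levels was 99.2 in LSD, 92.1 after 4 h, 87.3 after 8 h and 28.4 after 16 h. On the log2(value + 0.5) scale, the median difference from LSD was -0.15 at 4 h, -0.19 at 8 h and -1.76 at 16 h, where that of all 10114 genes tested was 0.01, -0.01 and 0.00. The rule limits the size but not the sign of the earlier differences: 154 members lay below LSD and 61 above it at 4 h, and 186 below and 29 above at 8 h, where 49.2% and 51.6% of all genes lay below. All 3 comparisons share the LSD libraries, which also entered the choice of the members. At 16 h the differences ran from -3.30 to -1.001 with quartiles of -2.15 and -1.37, and the median member stood at 29.5% of its LSD level. A fall of 4-fold or more was seen in 79 members and a smaller one in 136.

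**Figure D1:**
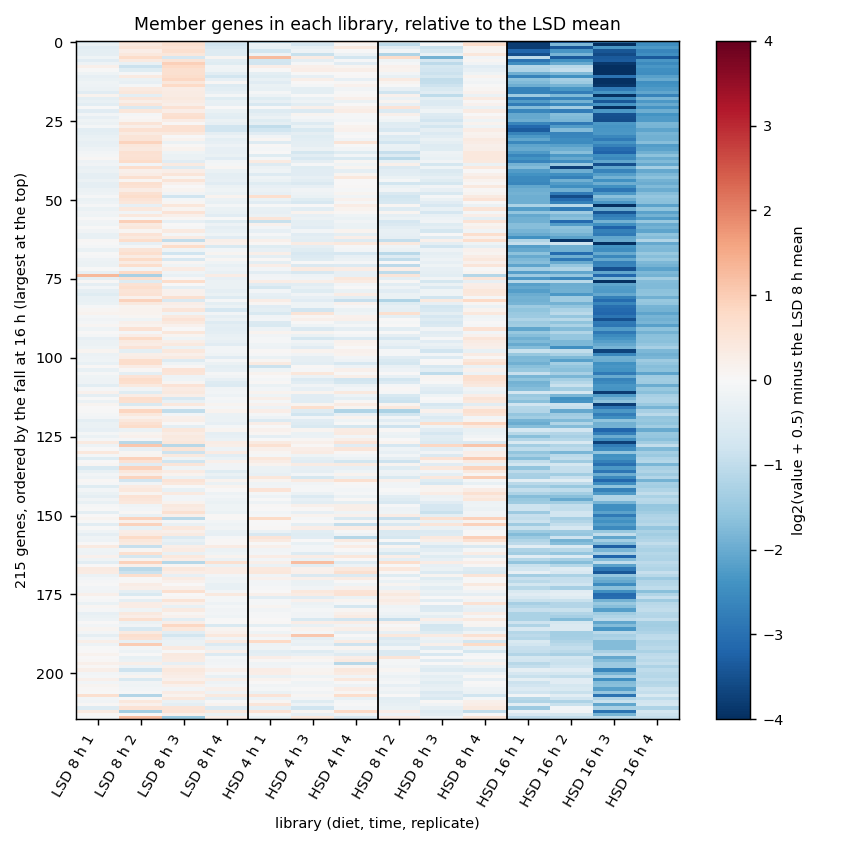
Each row is 1 of the 215 member genes and each column 1 of the 14 libraries. Colour gives log2(value + 0.5) minus the gene's mean in the 4 LSD libraries. The 4 columns of HSD at 16 h are blue over nearly the whole height, most deeply in replicate 3, and the 10 other columns are pale.

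The calls and overlaps of the members can be read only against those of all genes. In limma, 208 members were called lower at 16 h (adjusted p under 0.05), where 20.4% of all genes were, and the rule had fixed this direction. For 197 members every 16 h library lay below every LSD library, which held for 18.1% of all genes, and for 187 every 16 h library lay below all 10 other libraries (9.57% of all genes). The 7 members without a call were CG17959, CG9689, CG13325, CG15225, CG34202, CG42264 and CG43366. Against LSD, limma called 0 members at 4 h, where 24.2% of all genes were called. At an unadjusted p under 0.05, 2 passed there (4 with only those 2 groups in the fit), and edgeR called 0. At 8 h 1 member was called, CG13460, lower at -0.46 on the log2 scale, where 34.4% of all genes were called and 16.9% were lower. Fitted on the 2 groups of each comparison alone, limma called CG8105 at 4 h, and at 8 h it called CG16704 and no longer CG13460. The rule's limits bound these differences.

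The largest fall was that of CG5756 (2R:18101061-18108389, minus strand), at 375, 886, 882 and 404 in LSD replicates 1 to 4. It lay at 279, 399 and 748 in HSD replicates 1, 3 and 4 at 4 h, and at 415, 358 and 717 in replicates 2, 3 and 4 at 8 h. After 16 h the values were 23.1, 65.7, 80.0 and 100.1 in replicates 1 to 4. All 16 h libraries were thus far below the rest, replicate 1 the lowest, while LSD replicates 2 and 3 and replicate 4 of both earlier HSD times were the high ones. The log2 difference was -3.30 (SE 0.47), or 9.85-fold lower.

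CG3108 (X:5777195-5781620, minus strand), a predicted metallocarboxypeptidase, an enzyme class that removes single residues from the end of a protein, was the most abundant member. It lay at 1377, 2139, 2793 and 1265 in LSD, at 1076, 1552 and 1771 at 4 h, at 1658, 1103 and 1917 at 8 h and at 200.01, 355, 168 and 292 at 16 h. Its 16 h libraries all lay far below the lowest other value, and the log2 difference was -2.88 (SE 0.30). CG3097 (X:5765855-5770780, minus strand), a predicted enzyme of the same class beside it on the X chromosome, lay at 234, 218, 522 and 191 in LSD and at 47.4, 65.7, 17.9 and 45.3 at 16 h, with LSD replicate 3 far above the other LSD libraries. Both genes overlap a gene on the opposite strand.

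CG33268 (3L:11590872-11591231, minus strand) and CG7377 (3L:11589695-11589979, plus strand) are neighbours on 3L that are transcribed toward each other. CG33268 was at 77.8, 123, 144 and 54.3 in LSD and 6.24, 26.4, 3.78 and 16.0 at 16 h (log2 difference -3.13, SE 0.55). CG7377 was at 135, 235, 239 and 123 in LSD and 14.8, 47.7, 14.2 and 31.2 at 16 h (-2.85, SE 0.43). In both, LSD replicates 2 and 3 and 16 h replicate 2 were the highest of their groups, and replicates 1 and 3 were the lowest at 16 h.

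CG9083 (2R:24898273-24899505, plus strand) was among the most abundant members per length, at 1158 per kb of exon in LSD. Its levels were 922, 1811, 1852 and 811 in LSD and 89.7, 119, 249 and 255 at 16 h, with no overlap, and its log2 difference of -2.96 (SE 0.39) was -2.27 without LSD replicates 2 and 3 and 16 h replicate 2, the libraries of these groups with the highest levels of cuticle protein genes. It overlaps a gene on each strand. CG9411 (X:14472408-14480086, minus strand) was at 1159.6, 2022, 2239.9 and 1165 in LSD and 205, 293, 158 and 315 at 16 h, again with no overlap (-2.75, SE 0.28). CG12540, its neighbour within 20 kb, had a mean of 62.1 ± 27.3 in LSD and 9.53 ± 2.27 at 16 h (SD, n = 4 each; -2.56, SE 0.29).

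CG43920 (2R:17598845-17599253, minus strand) was the lowest in level of the 12 largest falls. It was at 3.98, 7.99, 2.70 and 5.03 in LSD, at 11.8, 5.92 and 2.58 at 4 h and at 8.03, 0.873 and 4.23 at 8 h, while at 16 h it had no read in replicates 2, 3 and 4 and a value of 1.96 in replicate 1. The 16 h libraries overlap 1 library of the 8 h group, and the fitted difference of -2.77 (SE 0.66) depends on the pseudocount.

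In CG13438 and CG7173 the size of the fall rested in good part on 1 library. CG13438 (2R:20692829-20693739, plus strand) was at 282, 135, 427 and 221 in LSD and at 109, 114, 2.87 and 48.0 at 16 h. CG7173 (3L:21555373-21558226, minus strand) was at 202, 146, 318 and 182 and 86.8, 104, 3.14 and 36.6. In both, 16 h replicate 3 was near 3 and replicates 1 and 2 near or above 87, which is closer to LSD than to replicate 3 on the log2 scale. The log2 differences of -2.70 and -2.61 were -1.53 and -1.55 without replicate 3. CG15239 (X:3884168-3890486, plus strand) had the same order of libraries, at 223, 247, 45.9 and 149 at 16 h against 743, 818, 1305 and 633 in LSD (-2.59, SE 0.44).

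**Figure D2:**
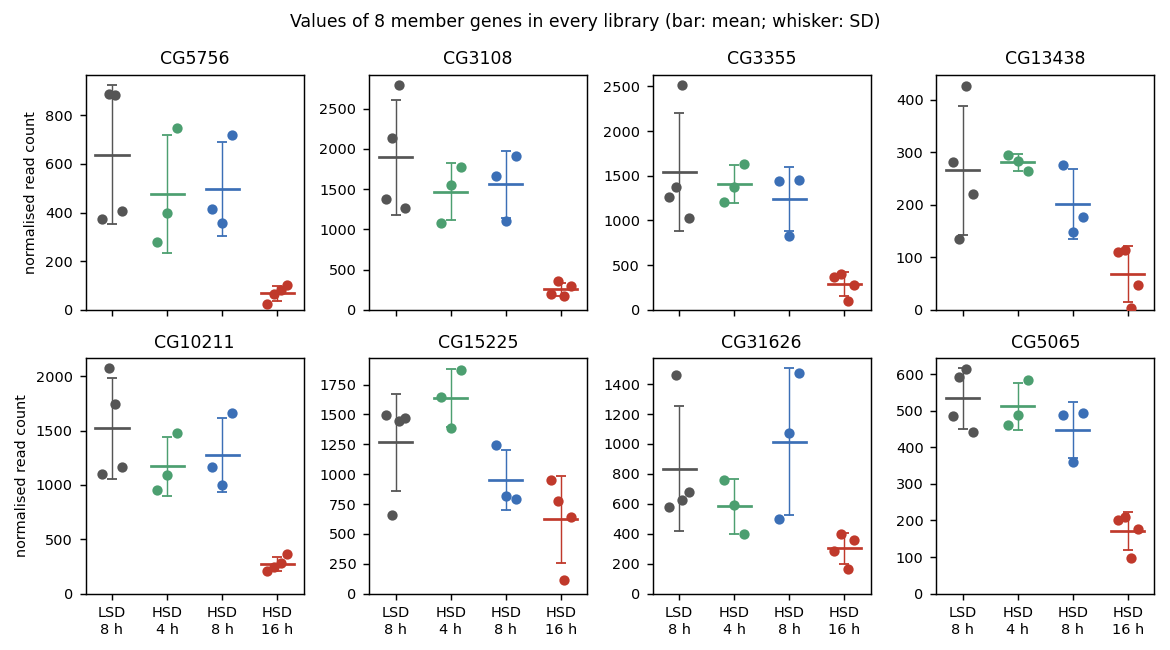
Each panel shows 1 member gene, each point 1 library, the horizontal bar the group mean and the whisker the SD, on a linear axis of normalised read count that starts at 0. The 16 h points lie below all others in CG5756, CG3108, CG3355, CG10211 and CG5065, overlap earlier groups in CG15225 and CG31626, and 1 point of CG13438 lies near 3.

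Among the remaining members with high levels, CG3355 (2L:4651403-4652892, plus strand), a predicted serine protease, lay at 1259.9, 1378, 2511 and 1023 in LSD and at 372, 397, 98.2 and 274 at 16 h (-2.53, SE 0.41). CG10211 (2L:18517487-18531967, plus strand), which encodes a predicted heme peroxidase, lay at 1101, 2071, 1740.3 and 1169.8 and 212, 244, 285 and 362 (-2.44, SE 0.24). Neither overlapped between the groups, and they differ in which 16 h library is the lowest, replicate 3 in CG3355 and replicate 1 in CG10211. CG14107 (-2.40) and CG4115 (-2.13) had LSD means of 937 ± 351 and 835 ± 217 (SD, n = 4) and also no overlap.

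CG15225 and CG34202, 2 of the 4 most abundant members per length at 1556 and 1031 per kb in LSD, were among the least separated. CG15225 (2R:20792982-20793795, plus strand) was at 1499, 656, 1443 and 1471 in LSD and at 952, 778, 113 and 641 at 16 h. CG34202 (2R:20752586-20753739, plus strand) was at 1596, 453, 1119 and 1333 and 915, 759, 132 and 663. LSD replicate 2 lay below 2 of the 16 h libraries in CG15225 and below 3 in CG34202, and in both genes 16 h replicate 3 was far below the rest. Without that replicate their log2 differences of -1.32 and -1.04 were -0.62 and -0.40, and that of CG34202 was -1.76 without LSD replicates 2 and 3 and 16 h replicate 2. CG3546, at 1111, 668, 1369.5 and 1102 in LSD and 611, 571, 74.5 and 368 at 16 h, changed from -1.71 to -1.03 in the same way. CG31626 was the opposite case in LSD, with replicate 2 at 1460 and the others between 580 and 679, above all 16 h values (286, 401, 168 and 356).

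By hand, 41 members were placed in classes of predicted or known function, chosen by name and family after the members were known. The classes are not complete, and some members outside them also have a known function. Of these classes the most numerous was that of serine proteases and their inactive homologs, with 11 members and log2 differences of -2.53 to -1.06. Secreted enzymes of this kind cut other proteins outside the cell, and in flies some act on the cuticle and the tracheal tube lining. CG8213, which RefSeq lists as flz (filzig), was at 615, 635, 875 and 642 in LSD and 186, 241, 59.5 and 165 at 16 h (-2.23, SE 0.35). CG4386, named tpr in the reference, was at 233, 229, 379 and 219.7 and 110.2, 119, 22.8 and 67.4 (-1.94, SE 0.41). CG4998 was at 442, 856, 377 and 479 and 81.3, 91.3, 121 and 149 (-2.24, SE 0.27). No 16 h library of these 3 genes reached any LSD library. Replicate 3 was the lowest 16 h library of CG8213 and CG4386 and the lowest for CG4998 was replicate 1. The other proteases included CG7432 (-2.29), CG8170 (-2.20), CG11836 (-1.44) and CG13318 (-1.06).

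Enzymes that build very long lipids made up a further class. Fatty acid elongation adds carbons to a fatty acid in a cycle of 4 steps, and the elongase that starts the cycle sets the chain length. The elongase genes CG31522 and CG31523 lie side by side on 3R. CG31522 was at 502, 907, 474 and 512 in LSD and 219, 198, 229 and 259 at 16 h (-1.35, SE 0.23). CG31523 was at 494, 804, 429 and 490.1 and 242, 213, 226 and 268 (-1.18, SE 0.19). Both were highest in LSD replicate 2 and had nearly even values at 16 h, replicate 3 included. CG2781, now Elovl7, had means of 570.1 ± 126 in LSD and 222 ± 63.5 at 16 h (SD, n = 4; -1.37). CG6746, now Hacd1, which encodes the dehydratase of the cycle, had means of 194 ± 32.1 and 75.8 ± 12.6 (-1.35).

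Fatty acyl-CoA reductases turn fatty acids into the alcohols of waxes. The members CG8306, CG8303 and CG5065 lie together at 2R:16589518-16624894. CG5065 was at 486, 593, 614 and 442 in LSD and 200.3, 210.0, 97.2 and 175 at 16 h (-1.69, SE 0.22), CG8306 at 539.5, 440.1, 657 and 477 and 305, 290.4, 156 and 249 (-1.11, SE 0.19), and CG8303 at 212, 206, 314 and 197 and 125, 167, 67.6 and 100.5 (-1.06, SE 0.24). No 16 h library of these 3 genes reached any LSD library, and 16 h replicate 3 was the lowest in each. In CG8303, 16 h replicate 2 lay above 8 h replicate 3. CG30427, the remaining member of the class, stands elsewhere on 2R and was at 273, 509, 265 and 299 and 100.4, 62.3, 106 and 138 (-1.72, SE 0.30), with 16 h replicate 2 the lowest.

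Of the isoprenoid pathway, which runs from acetyl-CoA through mevalonate and in flies supplies ubiquinone, dolichol and juvenile hormone but not sterols, 3 members encode steps. CG8239 (Mvd, mevalonate diphosphate decarboxylase) was at 68.5, 63.7, 94.2 and 63.6 in LSD and 39.7, 37.1, 12.6 and 24.1 at 16 h (-1.45, SE 0.29). CG10268 (Pmvk, phosphomevalonate kinase) was at 34.2, 36.5, 46.7 and 32.0 and 19.3, 18.7, 9.56 and 13.1 (-1.31, SE 0.20). CG10585 (Pdss2, a subunit of the enzyme that makes the ubiquinone tail) was at 213, 213, 287 and 187 and 98.1, 101, 39.0 and 69.9 (-1.61, SE 0.26). The groups did not overlap, and replicate 3 was again the lowest.

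These members were set beside the genes of their own families, which were gathered after the members were known, so the counts describe the families and test nothing. Of 8 isoprenoid genes counted, 6 were lower and 1 higher at 16 h than in LSD by limma, with a median log2 difference of -1.11. The gene qless, the partner of CG10585, was lower, with a log2 difference of -1.84 (SE 0.18, limma adjusted p = 9.91e-06), whereas Fpps was higher by 0.30 (SE 0.10, limma adjusted p = 0.0307). Of 20 genes of the elongation cycle 8 were lower and 1 higher, with a median of -0.26, and Sc2, its enoyl-CoA reductase, was among the lower ones (-1.10). Of 11 fatty acyl-CoA reductases 5 were lower and 0 higher (median -1.06). Of all genes tested 20.4% were lower and 19.4% higher.

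**Figure D3:**
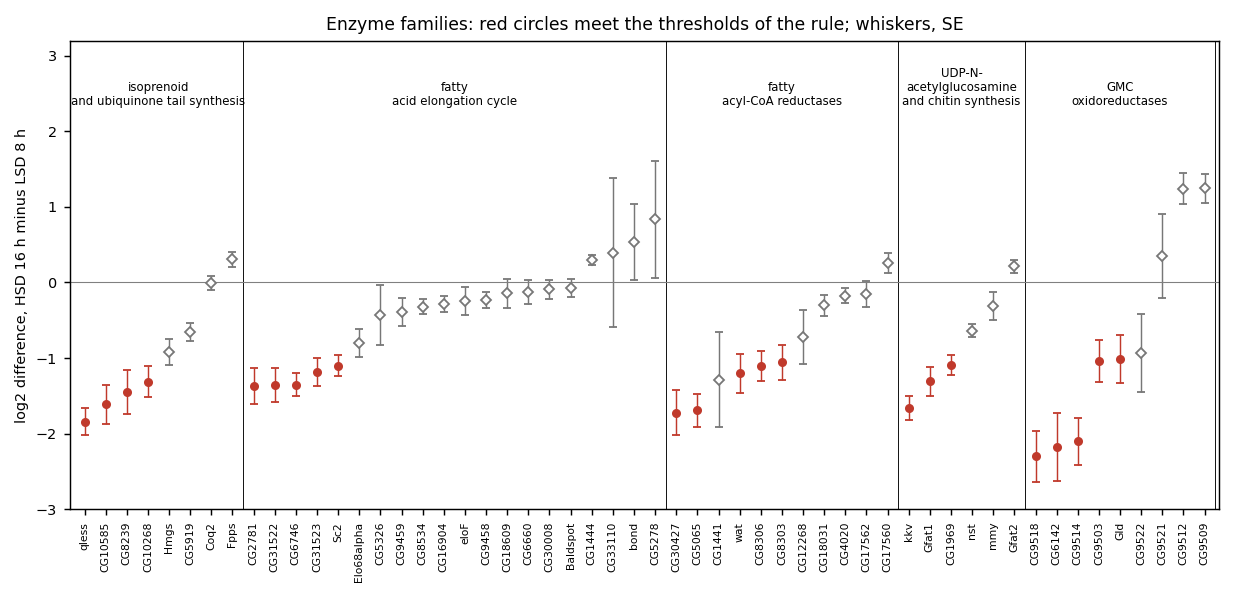
Log2 differences between HSD at 16 h and LSD at 8 h, with SE whiskers, for the genes of 5 enzyme families. Red circles meet the expression, fall and flatness thresholds of the rule and open diamonds do not. The circles include kkv, Gfat1, qless, Sc2, wat and Gld, which have names and so are not members, and CG9512 and CG9509 stand above 0.

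Of the GMC oxidoreductases, a family of flavin enzymes that includes glucose dehydrogenase (Gld), 4 were members. CG9518 and CG9514 lie near each other on the X chromosome. CG9518 was at 79.8, 188, 86.3 and 79.5 in LSD and 16.3, 17.1, 19.1 and 30.5 at 16 h (-2.30, SE 0.34), and CG9514 at 56.0, 78.1, 54.8 and 44.2 and 17.3, 18.5, 5.69 and 15.0 (-2.10, SE 0.31). CG6142 (-2.17) and CG9503 (-1.04) are the others. The family did not move as 1 block: of 9 measured genes 5 were lower and 2 higher, and CG9509 and CG9512 were higher at 16 h by 1.25 and 1.24 (limma adjusted p = 3.27e-04 and 4.13e-04).

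The cuticle barrier was represented by CG9990 and CG2837, now snu (snustorr) and snsl (snustorr snarlik), an ABC transporter and an extracellular protein that fly embryos need to form a water-tight cuticle. CG9990 was at 219, 433, 201 and 247 in LSD and 80.0, 78.7, 71.0 and 99.1 at 16 h (-1.68, SE 0.28). CG2837 was at 45.9, 91.2, 49.6 and 47.5 and 14.5, 21.5, 10.1 and 18.4 (-1.82, SE 0.33). In both, LSD replicate 2 was high and the 16 h libraries were all below LSD. CG1969, now Gnpnat, which acetylates glucosamine phosphate on the way to the building block of chitin, was at 115.3, 132, 148 and 98.6 and 65.3, 61.6, 47.9 and 55.5 (-1.09, SE 0.13). In its pathway, the chitin synthase kkv (-1.66) and the entry enzyme Gfat1 (-1.31) also met the thresholds of the rule, and 4 of the 6 genes measured were lower at 16 h and 0 higher.

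The other assigned members were 6 lipases with log2 differences of -2.10 to -1.29 (CG18641, CG6847, CG31871, CG6753, CG1986 and CG13282) and CG42331, a gene of the peroxidase class of CG10211 (-2.43, and -1.83 without 16 h replicate 3). To these come CG10264 and CG2016 (-2.38 and -1.74), of a family of predicted juvenile hormone binding proteins and now called Jhbp4 and Jhbp2, and CG2016 was at -1.05 without 16 h replicate 3. Further members that have since been named are CG15887 (apn, apnoia, needed for tracheal tube growth in flies; -1.93), CG9850 (sona, a secreted metalloprotease; -1.46), CG3669 (CAH6, a carbonic anhydrase; -2.39), CG44252 (Fatp2, of the fatty acid transport proteins; -1.76), CG6347 (CtsL2, a cathepsin L-like protease; -2.21), CG8105 (Alp11, an alkaline phosphatase; -1.28, and -0.69 without 16 h replicate 3) and CG15829 (Acbp6, an acyl-CoA binding protein; -1.11).

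The 16 h libraries were not alike. Relative to the LSD mean, their median was -1.49 in replicate 1, -1.41 in replicate 2, -2.37 in replicate 3 and -1.55 in replicate 4. The values of all members together made up 4.01% to 5.11% of a library's summed values in LSD, 3.93% to 4.57% after 4 h and 3.34% to 4.56% after 8 h. After 16 h they made up 1.53% to 1.69%, and 0.868% in replicate 3. Replicate 3 was the lowest 16 h library for 159 members, replicate 2 for 36, replicate 1 for 20 and replicate 4 for none. Ties were counted under the first replicate, as in CG43920, which had no read in replicates 2, 3 and 4.

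Set against the mean of the other 16 h libraries, replicate 3 was lower by 1 or more on the log2 scale in 87 members (40.5%) but in 3.28% of all genes tested. The median of the members was -0.79, and the median of all genes was 0.00. The rule used the 16 h mean, which includes replicate 3, so genes low in that library entered more readily. These shares and medians describe the members and test nothing. In 26 members replicate 3 was lower by 2 or more, led by CG13438, CG7173, CG15370, CG6026 and CG9289. In 37 members it was higher than the mean of the others, led by CG9083, CG6142, CG5756 and CG17032. With replicate 3 left out, the median log2 difference of the members from LSD was -1.55 and 181 members still lay at -1 or lower. Leaving it out changed the fold between 16 h and LSD, the log2 difference turned back to a ratio, by over 1.5 times in 19 members. Leaving out 16 h replicate 2 did so in CG30471 (log2 difference -2.08 to -1.47), while no other single 16 h or LSD library did so in any member.

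In LSD, replicates 2 and 3 stood above the LSD mean, with medians of 0.28 and 0.19, and replicates 1 and 4 below it, at -0.15 and -0.22. Replicate 2 was the highest LSD library for 108 members but the lowest for 41, among them CG15225, CG34202 and CG3546, so its difference was not 1 common shift. In HSD at 8 h, replicate 4 was the highest for 146 members. Cuticle protein genes were also high in some of these libraries, with list medians of 0.66 and 0.23 in LSD replicates 2 and 3, 0.72 in 8 h replicate 4 and -0.10 in 16 h replicate 2, against -1.88 to -1.47 in the other 16 h libraries. The members did not follow them everywhere: in 8 h replicate 3 the cuticle list was at 0.54 and the members at -0.39, and in 4 h replicate 4 they were at -1.04 and -0.02. The part of these differences between libraries in the members' fall was not tested. Without LSD replicates 2 and 3 and 16 h replicate 2, the median difference of the members was -1.69, and 230 genes met the rule, 189 of them members.

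**Figure D4:**
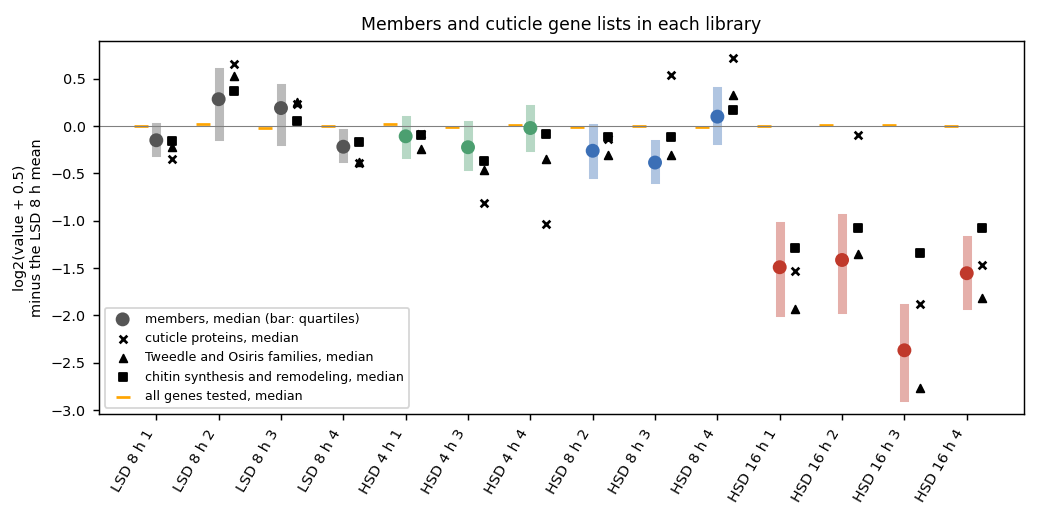
For each library, the coloured point is the median over the 215 members of log2(value + 0.5) minus the LSD mean, and the bar spans the quartiles. Black marks give the medians of 3 gene lists and orange dashes that of all genes tested. The points lie within -0.39 and 0.28 in the 10 libraries of LSD, 4 h and 8 h and between -2.37 and -1.41 at 16 h, while the medians of all genes stay near 0.

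The contrast of HSD at 8 h with HSD at 4 h is no term of the rule, which bounds its size at 1 on the log2 scale through the limits at both times. There, 0 of 215 members were called by limma, where 9.21% of all 10114 genes were called (4.5% lower and 4.71% higher), and edgeR on the recovered reads also called 0. At an unadjusted p under 0.05, 3 members passed in limma and 2 in edgeR. The differences were below 0 in 121 members and above 0 in 94, with a median of -0.04 and a range of -0.90 to 0.71, while the median of all genes was 0.00. Fitting only the 2 groups compared gave 3 member calls (CG8105, CG13562 and CG14356), and leaving out 16 h replicate 3 gave 1 (CG8105). In both settings the count over all genes stayed within 1.5 times of the 931 called in the reported fit.

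The smallest adjusted p of the members in that contrast belonged to CG11349, at 7.34, 3.35 and 5.17 at 4 h and 2.87, 3.17 and 2.19 at 8 h. The groups are separate but close, and the difference of -0.79 (SE 0.30, limma adjusted p = 0.121) did not pass. The highest group mean of CG11349, by which it met the limit on levels, was its 4 h mean of 5.29. Its difference from 4 h to 8 h thus draws on values that the rule used. CG15890 was at 58.2, 52.8 and 58.1 at 4 h and 70.4, 62.9 and 91.7 at 8 h (0.39, SE 0.16, limma adjusted p = 0.149). CG15829 was at 132, 128 and 67.8 and 140.2, 149 and 166, with 4 h replicate 4 well below the rest (0.53, SE 0.24, limma adjusted p = 0.177). CG1812, CG10268, CG8306, CG34375 and CG14356 followed, at -0.29, -0.42, -0.40, 0.55 and -0.57.

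The members closest to the limits of the rule were hardly different from the genes just beyond them. CG13325 was in at a difference of -1.001 at 16 h and CG42812 was out at -0.988. CG15829 was in at -0.499 at 4 h and CG3880 was out at 0.50022. CG11349 was in at -0.485 at 8 h and, with a highest group mean of 5.29, at the limit on levels, where CG43709 was out at 4.84. CG9747 was out at -0.500043 at 8 h. In all, 362 CG symbols at a mean of 5 or more had a fall of at least 1 at 16 h. Besides the 215 members and 4 of the symbols left out by name (CG12262, CG6271, CG6283 and CG8093), the other 143 differed from LSD by over 0.5 at an earlier time, some at both: 104 were lower and 8 higher at 4 h, and 68 lower and 33 higher at 8 h. The mirrored thresholds, a rise of 1 or more at 16 h alone, were met by 22 CG symbols.

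Genes with other symbols met the same thresholds in 144 cases, 2.84% of the 5072 that reached the mean of 5, with a median difference of -1.66 at 16 h. They show which known genes had the profile that defines the members. The 12 with the highest LSD mean were Osi6, ect, verm, Osi15, dyl, serp, Osi9, Osi14, Gasp, Osi20, Osi19 and Cht6, that is, 6 Osiris genes, the chitin deacetylases verm and serp, the chitin-binding Gasp, the chitinase Cht6, the apical matrix protein dyl (dusky-like) and ect. Osi6 was at 7581, 8318, 13692 and 6278 in LSD, 6934, 7759 and 9489 at 4 h, 7596, 4939 and 7562 at 8 h and 2097, 2425, 434 and 1435 at 16 h. Its lowest library was 16 h replicate 3, as for most members. Cht6 was at 717, 1717, 912 and 845 in LSD and 128, 152, 234 and 241 at 16 h, with replicate 1 the lowest, as for CG5756. Over these 144 genes, chosen through the same 16 h mean, the median of replicate 3 against the other 16 h libraries was -0.56.

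The gene lists for pathways and tissues hold no member. At 16 h against LSD, 25 of 38 Tweedle and Osiris genes were lower and 1 higher by limma, with a median log2 difference of -2.24, and 16 of them met the thresholds of the rule. Of 26 genes of chitin synthesis and remodeling, 16 were lower and 1 higher (median -1.16), and 13 met the thresholds. Of 46 cuticle protein genes, 22 were lower and 4 higher (median -1.42), and 7 met the thresholds. The lower genes had log2 differences such as -2.29 (SE 0.19, limma adjusted p = 2.74e-06) in TwdlT, -1.99 (SE 0.18, limma adjusted p = 7.34e-06) in the deacetylase gene Cda5 and -2.41 (SE 0.23, limma adjusted p = 9.9957e-06) in Cpr65Eb, while the larval cuticle gene Lcp3 was higher by 2.24 (SE 0.26, limma adjusted p = 3.44e-05).

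Of 27 genes of ecdysone synthesis and response, 10 were lower and 6 higher (median -0.11). The 7 that met the thresholds included the nuclear receptor gene ftz-f1, which acts after the ecdysone peak, at 166, 356, 160.3 and 165 in LSD and 57.5, 58.0, 42.6 and 70.6 at 16 h (-1.81, limma adjusted p = 4.70e-04), and the ecdysone-inducible ImpE1 (-2.30) and ImpE2 (-1.86). shd, which encodes the enzyme that activates ecdysone, was higher by 2.28 (limma adjusted p = 7.88e-05), and the receptor gene EcR was at 49.3, 48.8, 44.2 and 51.9 in LSD and 45.3, 50.4, 41.0 and 44.3 at 16 h (-0.10, limma adjusted p = 0.317).

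Of 28 gut serine proteases 0 were lower and 21 higher (median 1.04), whereas the 11 protease members were lower by the rule, and 0 of the gut proteases met the thresholds. Of 10 gut lipases 6 were lower and 2 higher (median -1.98), of 19 genes of carbohydrate digestion 7 lower and 4 higher (median -0.55), and of 5 lysozymes 0 lower and 4 higher (median 0.99). Of the carbohydrate genes, 3 met the thresholds of the rule, the amylase-related Amyrel (-2.95), LManIII (-3.03, but -3.65 without LSD replicate 1 and -2.41 without LSD replicate 2) and Mal-B1 (-1.06), named here after their values were seen. The count of higher lysozymes was 1 without LSD replicate 1 or 3 or without 16 h replicate 1, 2 or 4, and 2 without LSD replicate 4 or any of the 8 h libraries. Of the tissue markers, 9 of 18 for muscle were lower and 0 higher, with a median of -0.24. For neurons 1 of 16 was lower and 0 higher (median -0.16), and for hemocytes 0 of 12 lower and 1 higher (median 0.40). For Malpighian tubules 2 of 5 were lower and 1 higher, for salivary glands 1 of 5 lower and 1 higher, for fat body 0 of 3 lower and 1 higher, and for testis the 1 gene measured was higher. Such counts of 1 or 2 genes lay between 0 and 4 when a library was left out. Of these 7 tissue lists, 1 gene met the thresholds of the rule, Best2 of the Malpighian tubule list (-1.03), which is named here after its value was seen. Without LSD replicates 2 and 3 and 16 h replicate 2, 1 lysozyme was higher, 4 muscle markers were lower and 1 ecdysone gene was higher, and the single higher gene of the Tweedle and Osiris list and of the chitin list was no longer called. No list of epidermal or tracheal cell markers apart from the cuticle lists was used.

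**Figure D5:**
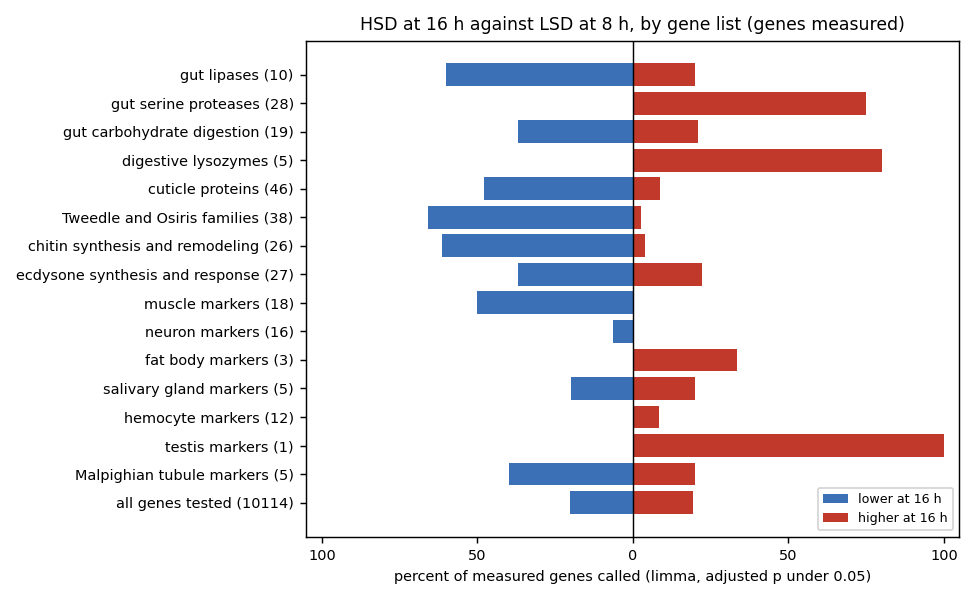
Bars give the percent of each list's measured genes that limma called lower (left, blue) or higher (right, red) in HSD at 16 h than in LSD at 8 h. The number of genes measured follows each name. The Tweedle and Osiris, chitin and cuticle lists extend mostly to the left, gut proteases and lysozymes only to the right, and all genes about equally both ways.

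The members lay on all large chromosome arms, with 29 on 2L, 42 on 2R, 35 on 3L, 58 on 3R, 1 on chromosome 4 and 49 on X. The X chromosome held 22.9% of the placed members and 16.2% of the placed genes of the table. Within 20 kb of another member lay 58 members (27.1%), whereas 547 of 4188 other CG symbols (13.1%) had a member that near. These 58 form 25 groups of 2 or 3 genes. CG3097, CG42264 and CG3108 lie at X:5765855-5781620, all on the minus strand, with differences of -2.73, -1.37 and -2.88. That of CG42264, which was not called, was -0.73 without 16 h replicate 3. CG15649, CG34115 and CG15650 lie within 2R:20972916-20978818, with -2.47, -1.98 and -1.44. CG13049, CG13048 and CG13045, at 3L:16281132-16290950, had -1.57, -1.59 and -2.25. CG7330 and CG13699, and CG46026 and CG31560, are pairs on 3L and 3R with -2.33 and -2.30, and -2.54 (-1.89 without 16 h replicate 3) and -2.47. Neighbouring members thus had falls of like size in some groups, as in CG7330 and CG13699, and of unequal size in others, as in CG3097 and CG42264. Whether neighbours share reads or sequence was not tested.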

How the data were processed

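Total RNA of whole larvae, without its ribosomal RNA, was turned into stranded libraries and read as 75 bp single-end reads in 2 technical runs per sample, per the labels' protocols. Per the submitters' processing notes, Trimmomatic, TopHat2 2.1.0, HTSeq and limma were used. The genome build, strand setting and gene filter are not stated there. The authors deposited 1 table, whose signal values per library are reads divided by an effective library size. Of these values 100% are whole multiples of 1 read within 0.01 read. Its columns of log2 fold changes, test statistics (scores) and p-values are, per the file headers, the authors' own comparisons and are not printed.

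Groups and replicate numbers come from the sample titles. Separate cultures are not named in the labels, so a p-value reflects only the spread between samples, which could be technical. The members and gene lists were chosen with earlier results of these data known.

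The 10114 genes that reached 1 in 3 or more libraries were fitted as log2(value + 0.5), which understates the change of low genes, with limma 3.58.1 in R 4.3.3. All 4 groups entered 1 fit, and the variance was allowed to follow the mean. Tests were two-sided, with Benjamini-Hochberg adjustment over all genes and a threshold of 0.05. The design had been written for CPM values, but column sums differ between libraries. The same test was kept. EdgeR 4.0.16 (quasi-likelihood) on the recovered reads called 3984 genes at 16 h, 3452 at 8 h and 2440 at 4 h against LSD, and 878 between 8 h and 4 h of HSD. The limma fit was first tried on simulated data, with the same relative spread in every gene and no shared differences between libraries. The libraries here do differ, so that trial does not show how the fit performs on them.

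Values are per library or mean ± SD. Folds are log2 differences turned back to ratios. Members named by rule were the 12 largest falls, the 8 next highest in LSD, up to 20 with another member within 20 kb, those nearest each limit and the 8 smallest adjusted p-values for 8 h against 4 h. Other genes named by rule were 12 by LSD mean with the thresholds and up to 3 per list, of which examples are given. A search for similar proteins, also in that rule, was not run. Members given by function, the families, and ftz-f1, ImpE1 and EcR were picked after their values were seen. One family gene is not reported here. Alternatives covered the pseudocount, filter, scaling, fit, replicate block, group medians and each library in turn.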

Additional observations from a re-analysis of the deposited data

Results flagged for a closer look

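In groups of 4 libraries, Dixon's criterion was used to flag a highest or lowest value that stood apart from the other 3. It did so in 15 of 198 groups of named genes (7.58%). Of these 15, 5 were in HSD 16 h replicate 3. The criterion's rate of about 1 in 20 holds for independent, normally distributed values. The values here were not logged and many genes were named for their size, so no excess over chance can be read.

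Among the members, CG43920 had a value of 1.96 in 16 h replicate 1 and 0 in the others. CG3097 reached 522 in LSD replicate 3, above 191 to 234 in the other LSD libraries. LSD replicate 2 stood apart in 3 members: it was the lowest for CG15225, at 656, and the highest for CG31626, at 1460, and for CG9518, at 188.

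Among the other named genes, 16 h replicate 3 was the lowest of its group for Osi9 (195), Osi14 (148), the cuticle gene Cpr65Eb (16.4) and the gut protease yip7 (1060), and the highest for the lipid carrier Apoltp (431). Replicate 4 at 16 h was the highest for the lipase CG8093 (0.733) and the amylase Amy-p (3.52), and replicate 1 for the hemocyte gene eater (3.63). In LSD, replicate 3 was the highest for the muscle gene Tm2 (2730) and replicate 4 the lowest for the hemocyte gene PPO2 (8.36). The causes of these values were not tested.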

How the results depend on the processing

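The number of genes that met the rule was 215 and lay between 181 (without LSD replicate 4) and 229 when a library was left out and between 172 (group medians) and 230 otherwise, and at least 164 of the members were among them in every setting run. The members' median difference at 16 h lay between -1.86 and -1.55 when a library was left out and between -1.80 and -1.58 otherwise. No member named by rule changed direction in the settings run. No named list gene did so where it was called in the reported or the other setting, and sign changes of genes called in neither were not counted. Genes called at 16 h (4018) and 8 h (3479) against LSD stayed within 1.5 times, whereas the count at 4 h, 2449, was 1411 when only the groups compared were fitted. The 931 genes called for 8 h against 4 h ranged from 320 to 1274 without 1 library (350 without 4 h replicate 1, 331 without 4 h replicate 4, 320, 370 and 471 without 8 h replicates 2, 3 and 4) and were 1770 with array weights. Members called there were 0 to 1 without 1 library. They were 3 when only the groups compared were fitted, where the count over all genes stayed within 1.5 times of 931. The causes were not tested. Of 462 values of named members under other settings, 16 differed from the reported one by more than the SD of the gene's own 16 h libraries on the log2 scale, most of them without LSD replicates 2 and 3 and 16 h replicate 2, among them CG12540 at -2.08, CG10211 at -2.02 and CG9518 at -1.89; with a pseudocount of 0.1, CG43920 was at -4.45. The calls of named list genes changed side in 49 of 1075 combinations of a gene and a setting (32 lost, 17 gained). CG13325 at the limit lay between -1.49 and -0.59 without 1 LSD library.

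A replicate block called 159 genes for 8 h against 4 h and 0 members; it moved no other count by over 1.5 times. Replicate numbers did not pair the libraries: of 18 pairs with the same number 6 correlated above 0.1 (-0.46 to 0.35), and 4 of 14 libraries correlated best with their own number. The setting without a filter does not bear on the rule and has no value for it.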

Other observations

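Outside the cuticle genes, the 144 named genes that met the same thresholds include the antimicrobial peptide gene Drs, which had the largest fall among them. Drs was at 129, 95.8, 40.1 and 108 in LSD, at 134, 92.3 and 72.3 after 4 h, at 144, 95.1 and 69.4 after 8 h, and at 5.82, 0.507, 3.82 and 5.03 after 16 h. All 16 h libraries lay far below the rest, and replicate 2 was the lowest (log2 difference -4.61, SE 0.54, and -4.01 without it). The immune genes Dro, IM1 and IM3 also met the thresholds but overlapped LSD. They were at 17.9, 44.0 and 69.2 in 16 h replicate 1, and at 2.37 or less in the other 16 h libraries. IM1 and IM3 were not called (limma adjusted p = 0.0811 and 0.231). These genes were picked after their values were seen.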
